A study of Mus musculus with 2 samples.

Results

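The genes examined were the 10 members of the imprinted Kcnq1 domain at the distal end of mouse chromosome 7 other than Cdkn1c: Phlda2, Slc22a18, Kcnq1, Nap1l4, Osbpl5, Cd81, Tssc4, Tspan32, Ascl2 and Th. They were chosen by gene symbol, as every probe set of the deposited table that the platform annotation pairs with one of these symbols and no other. All 10 were measured, each by 1 probe set, out of 19938 genes in all. Igf2, of the neighbouring H19 and Igf2 domain, and Cdkn1c were left out of the set and appear below only as reference values.

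Transcripts were measured in mouse embryonic fibroblasts (MEFs), mesenchymal cells cultured from embryos at 13.5 days post coitum, of 2 reciprocal genotypes. Cells of MatDup.dist7 carry a distal chromosome 7 segment of which both copies are maternally inherited, and in PatDup.dist7 cells both copies are paternally inherited. The cells of both genotypes were grown in serum-containing medium with no treatment named. Each genotype was measured on 1 Affymetrix whole-transcript array. No cell with a maternal and a paternal copy was measured, neither the breakpoint of the segment nor the number of embryos behind each culture is given in the labels, and no replicate shows how far 2 cultures of the same genotype differ.

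Imprinted genes are transcribed from the copy of 1 parent. In the Kcnq1 domain the control lies in an intron of Kcnq1, where the unmethylated paternal copy starts Kcnq1ot1, a long non-coding RNA that runs antisense to Kcnq1 and silences neighbouring genes on the same chromosome. The maternal copy carries DNA methylation at that site, does not make the RNA and keeps the neighbours active. Near the control site the silencing is known from the embryo and the placenta alike, whereas genes farther out on both flanks are known as imprinted mainly in the placenta. Kcnq1ot1 itself had no value here.

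Every value is the deposited linear intensity of a probe set, and every difference is MatDup.dist7 minus PatDup.dist7 on the log2(intensity + 16) scale, on which a value of 1 is 2-fold and low signals are pulled together. Where 2 intensities or sums are given as a pair, MatDup.dist7 comes first. Probe sets respond unequally to their transcripts, so levels were compared between the arrays, for 1 gene or for the sum of a list, and not between genes. Such a sum follows mainly the strongest probe sets of its list. The array medians were 68.6 and 64.2 for MatDup.dist7 and PatDup.dist7, and the median difference over all genes was 0.02. The cultures also differed in sex-linked transcripts, with Xist at 0.00166 and 91.2 and the Y-linked Eif2s3y at 112 and 6.44, so genotype and sex of the culture cannot be told apart for any gene below. In the fibroblast marker list all 10 genes were measured, none was under 1 on either array, and their summed intensities were 42214 and 49012, with 8 of the 10 higher in PatDup.dist7.

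Of the 10 members, 1 differed by at least 2-fold between the genotypes. This was Th, higher in MatDup.dist7, and the other 9 lay within 1.5-fold. Over all genes the share at least 2-fold apart was 7.63% in either direction, made up of 4.47% higher in MatDup.dist7 and 3.16% higher in PatDup.dist7. The share at least 1.5-fold apart was 27.9% of all genes, or 23.2% of those above the signal filter described next, of which 5.16% were at least 2-fold apart. The members were evenly divided by direction, 5 being higher in each genotype, and the median of the 10 differences was -0.06. With 1 array per genotype none of these differences was tested, and no count here separates the members from other genes.

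Of the members, 9 passed a signal filter that asks for the higher of the 2 intensities to lie above 66.4, the median of all probe sets. Tspan32 did not pass. Th and Slc22a18 passed through the MatDup.dist7 array alone, and the other 7 passed on both arrays. The only measure of precision inside the data is the agreement of probe sets of the same gene, whose log2 differences had a standard deviation of 0.43 over 1931 probe sets of 724 genes above the filter. Th, Osbpl5 and Nap1l4, 3 of the members, were apart by more than this, and 7 were not. Differences of this size were common, since 42.2% of all genes were at least as far apart as Nap1l4 (-0.44). The standard deviation holds no variation between cultures or embryos.

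**Figure D1:**
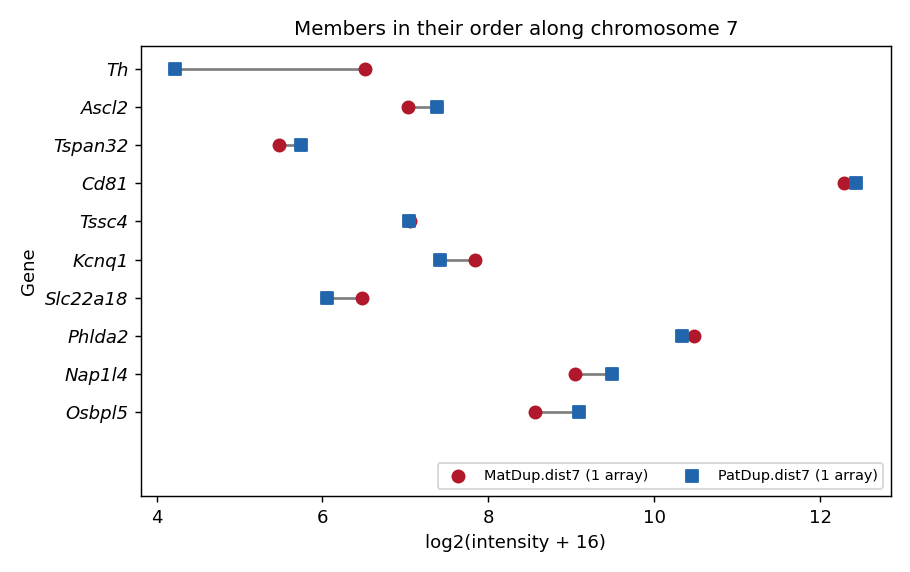
Level of each member on the 2 arrays, as log2(intensity + 16) on the horizontal axis, with genes from top to bottom in their order along chromosome 7. Circles stand for MatDup.dist7 and squares for PatDup.dist7, 1 array each and hence no error bars; Th has the widest gap (6.52 and 4.23), and the symbols of Tssc4 overlap.

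Th encodes tyrosine hydroxylase, which converts tyrosine to L-DOPA and sets the rate of dopamine and noradrenaline synthesis. Its probe set read 75.6 for MatDup.dist7 cells and 2.72 for PatDup.dist7 cells. The MatDup.dist7 value lay near the array median of 68.6, and the PatDup.dist7 value below 22.0, the 25th percentile of all signals. The direction is that of these 2 arrays only, and the size is set by how low signals are treated. The log2 difference was 2.29 with the pseudocount of 16, or 4.89-fold, and 38 genes (0.191%), Th included, were then at least this far apart in either direction. Over the 8 alternatives the ratio ran from 2.09 to 20.6, and it was 3.44 with low signals raised to 22.0.

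The place of Th among the genes depended on the same choice. With a pseudocount of 1 the difference was 4.37 and 216 genes were at least as far apart, since many genes of low signal then gain large differences. With a pseudocount of 64 the difference was 1.06 and 140 genes were at least as far apart. In all 8 alternatives Th stayed at least 2-fold higher in MatDup.dist7, though the signal filter and the choices of probe set could not change its value. The value rests on 1 probe set, and a low intensity does not show that the transcript was absent.

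Because Th was the one member beyond 2-fold, the 250 bases before its annotated start are printed, together with those of Ascl2, the next member along the chromosome, and Cd81, the next one whose window also ends at the outer limit of the gene, both within 2-fold. The sequences are those of RefSeq in build GRCm38.p6, read 5′ to 3′ on the strand of the gene, and each ends at the base before the start. Capitals mark the cyclic AMP response element TGACGTCA and the GC box GGGCGG on either strand, and no marked motifs of unlike kind overlap. The windows are chr7:142899996-142900245 on the minus strand for Th, chr7:142969265-142969514 on the minus strand for Ascl2, and chr7:143052500-143052749 on the plus strand for Cd81.
Th: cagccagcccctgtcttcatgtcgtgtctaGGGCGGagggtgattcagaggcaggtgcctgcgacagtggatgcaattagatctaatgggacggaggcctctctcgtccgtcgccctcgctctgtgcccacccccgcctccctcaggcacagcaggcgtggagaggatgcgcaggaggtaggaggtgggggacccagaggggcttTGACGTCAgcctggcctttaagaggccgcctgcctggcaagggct
Ascl2: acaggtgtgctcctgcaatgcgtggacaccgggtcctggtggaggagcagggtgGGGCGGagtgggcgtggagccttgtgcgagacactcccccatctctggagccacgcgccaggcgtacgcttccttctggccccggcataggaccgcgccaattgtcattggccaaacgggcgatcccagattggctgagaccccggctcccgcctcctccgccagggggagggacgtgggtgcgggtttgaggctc
Cd81: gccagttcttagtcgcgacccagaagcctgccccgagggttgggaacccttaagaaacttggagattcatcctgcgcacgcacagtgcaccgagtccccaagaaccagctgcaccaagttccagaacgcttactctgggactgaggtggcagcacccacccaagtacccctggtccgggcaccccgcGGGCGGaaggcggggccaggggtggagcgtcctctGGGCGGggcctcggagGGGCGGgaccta

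The Th window holds 1 TGACGTCA, with its first base at position -45 where -1 is the last base before the start, and 1 GGGCGG. Ascl2 has 1 GGGCGG and Cd81 has 3, neither with TGACGTCA. Of 27025 genes with such a window in the RefSeq table, taking the most upstream start of each, 1.60% hold TGACGTCA and 33.0% hold GGGCGG. These matches describe the letters of the windows, and no binding was measured. Of 327 measured genes whose window holds TGACGTCA, 5.50% were at least 2-fold apart, beside 7.43% of the 15614 measured genes with a window. The part of the motif in the Th difference was not tested.

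Windows were listed for 8 of the 10 members, all except Kcnq1 and Nap1l4. Among the 8, TGACGTCA was found for Th, GGGCGG for 4 members (Th, Ascl2, Cd81 and Phlda2) and TATAAA for Phlda2, the last being held by 13.0% of all windows. The number of CpG dinucleotides, the sites of DNA methylation, was 13 for Th, 19 for Ascl2, 16 for Cd81, 17 for Tssc4, 21 for Phlda2 and 14 for Osbpl5, against a median of 6 over all genes. Slc22a18 had 0 and Tspan32 had 1. The windows of Phlda2, Slc22a18, Tssc4 and Tspan32 lie at starts inside the outer limits of the annotated gene, and Osbpl5 has 3 listed starts.

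Catecholamine genes, a list of enzymes, cofactor enzymes and transporters around Th, held 1 other gene beyond 2-fold. This was Slc6a2, which encodes the noradrenaline transporter, with intensities of 69.7 and 5.26 (a log2 difference of 2.01). It passed the signal filter through MatDup.dist7 alone, and its difference was 0.95, under 2-fold, with a pseudocount of 64 and 3.50 with one of 1. The other 12 of the 13 measured genes lay within 2-fold. Of the 13, 9 had a higher value in MatDup.dist7 and the remaining 4 a higher one in PatDup.dist7, with a median difference of 0.37 beside 0.02 over all genes.

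The 3 enzymes that lead from L-DOPA to adrenaline were each higher in MatDup.dist7 by less than 2-fold. Ddc, which turns L-DOPA into dopamine, read 171 and 106 (0.61). Dbh, which makes noradrenaline, read 43.3 and 35.2 (0.21), under the signal filter on both arrays. Pnmt, which makes adrenaline, read 92.4 and 44.8 (0.83). Gch1, the first enzyme of the cofactor that Th needs, read 67.8 and 40.7 (0.56). Gch1 and Pnmt lay below 66.4 in PatDup.dist7. Pts and Qdpr, also of the cofactor pathway, read 215 and 169 (0.32) and 265 and 180 (0.52). Maoa, which breaks catecholamines down, read 306 and 230 (0.39). The remaining enzymes hardly differed: Spr, of the same cofactor pathway, read 375 and 375, and Maob, which also breaks catecholamines down, read 86.9 and 87.0. Every measured enzyme of the list is thus named.

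Th is a marker of sympathetic neurons and adrenal chromaffin cells. On a list of 12 other markers of these cells, 10 had a value and 8 of the 10 were higher in MatDup.dist7, none of them by 2-fold. Gata3, a transcription factor of these and other cells, was beyond 2-fold in the other direction, at 47.7 and 115 (-1.04). The list summed to 1254 and 1013, and no marker was under 1, but only 7 of the 10 passed the signal filter. The part of such cells in the Th difference was not tested, and in whole cultures fewer cells of a type and less RNA per cell cannot be told apart. The list shares 4 genes with the catecholamine list.

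**Figure D2:**
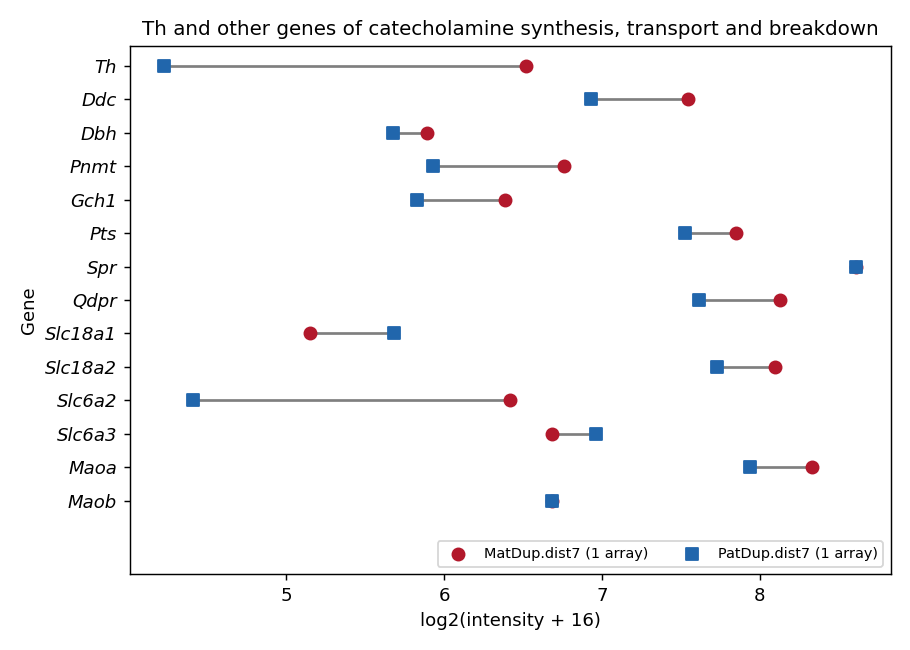
Levels of Th and of the 13 measured catecholamine genes on the 2 arrays, as log2(intensity + 16) on the horizontal axis, 1 gene per row. Circles stand for MatDup.dist7 and squares for PatDup.dist7, 1 array each; Th and Slc6a2 have the widest gaps (differences of 2.29 and 2.01), and Slc18a1 and Slc6a3 lie the other way.

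Phlda2, Slc22a18 and Kcnq1 are the members nearest Cdkn1c and are known for maternal expression in embryo and placenta alike. All 3 were higher in MatDup.dist7, by 0.15 to 0.43 on the log2 scale, and none came near 2-fold. The reference gene Cdkn1c, which lies between Kcnq1 and Slc22a18, read 1109 and 0.0132, a difference of 6.13 whose size depends on the pseudocount (10.1 with 1 and 4.20 with 64). Under both of these settings, too, the 3 members lay within 2-fold.

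Kcnq1 encodes the pore subunit of a slow voltage-gated potassium channel of the heart and the inner ear. Its probe set gave 213 for MatDup.dist7 against 155 for PatDup.dist7, 1.38-fold on the raw intensities. The log2 difference was 0.43, and 44.2% of all genes were at least that far apart. Of the related channel and accessory subunit genes, 7 of 9 had values, 4 of them higher in MatDup.dist7. Kcne2, which encodes a small accessory subunit, read 152 and 101 (0.52). Kcne1, the accessory subunit that Kcnq1 pairs with in the heart, read 23.2 and 1.72 (1.15), the only one of the 7 beyond 2-fold, and lay under the signal filter. The median of the 7 was 0.46.

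Slc22a18 encodes a membrane transporter related to organic cation carriers. Its intensity was 72.7 in MatDup.dist7 cells and 50.6 in PatDup.dist7 cells, a raw ratio of 1.44. The log2 difference of 0.41 was matched or passed by 45.8% of all genes. It moved between 0.25 with a pseudocount of 64 and 0.52 with low signals raised to the 25th percentile. Neither setting could turn its direction. Among the 22 measured relatives of the Slc22 family, 1 was at least 2-fold higher in each genotype, with a median of -0.14. The one above the signal filter was Slc22a5, a carnitine transporter gene, at 25.7 and 77.7 (-1.17), and it passed through PatDup.dist7 alone.

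Phlda2 encodes a small protein with a pleckstrin homology domain that restrains growth of the placenta. It read 1416 with the maternal duplication against 1272 with the paternal one. The raw ratio was 1.11 and the log2 difference 0.15, and 80.0% of all genes were at least as far apart. Both values lay above the signal filter. Its relatives Phlda1 and Phlda3 were both within 2-fold; Phlda3, a p53 target, read 1360 and 1712 (-0.33).

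Nap1l4 and Osbpl5 lie on the side of Phlda2 away from Cdkn1c, and their imprinting is known mainly from the placenta. Both were higher in PatDup.dist7, by less than 1.5-fold. Nap1l4, a histone chaperone gene, read 511 with MatDup.dist7 and 702 with PatDup.dist7. The log2 difference was -0.44, and 42.2% of all genes were at least as far apart. Osbpl5 encodes a lipid transfer protein at contacts between the endoplasmic reticulum and the plasma membrane, and its probe set gave 360 and 529. Its log2 difference of -0.53 was the widest of the 9 members other than Th under the reported setting and under each of the 8 alternatives, where it reached 1.47-fold at most.

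Relatives of these genes went either way. Of the 5 genes on the Nap1 list, 3 were higher in MatDup.dist7, and Nap1l1 read 279 and 239 (0.21). The weak Nap1l2 was the one beyond 2-fold, at 7.96 and 37.8 (-1.17), under the signal filter. All 11 genes of the oxysterol-binding list lay within 2-fold, of which 6 were higher in PatDup.dist7, with a median of -0.21. Osbpl9 read 619 and 525 (0.23).

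Tssc4, Cd81, Tspan32 and Ascl2 lie between Kcnq1 and Th, and they too are known as maternally expressed mainly in the placenta. None reached 1.5-fold, and 3 of the 4 were higher in PatDup.dist7. Tssc4, whose product takes part in assembly of the splicing machinery, read 117 and 116. Its log2 difference of 0.02 was that of the median gene to 2 decimals, and its sign turned on median centring and on quantile normalisation of the arrays (-0.03 at the lowest). Cd81 encodes a tetraspanin, a membrane protein that organises receptor complexes on many cell types. It gave 4985 and 5525, and a log2 difference of -0.15.

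Tspan32, a tetraspanin gene of blood cells, had the weak values 28.5 and 37.6 (-0.27). On a list of 9 lymphocyte markers, 8 had a value, all 8 within 2-fold. They summed to 604 and 631, and 4 were higher in each genotype. No marker was under 1, but only 5 of the 8 passed the signal filter. Ptprc, the common leukocyte antigen, read 113 and 137. The 6 macrophage markers summed to 2856 and 3294, with 1 beyond 2-fold, Mrc1, the mannose receptor gene, at 31.7 and 103 (-1.32). Directions were mixed, as 4 of the 6 differences were negative and 2 positive. The positive ones were Adgre1, at 548 and 273 (0.96), and Csf1r, at 855 and 746 (0.19). The part of blood cells in the Tspan32 and Cd81 values was not tested.

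Among the 28 other tetraspanin genes measured, 14 were higher in each genotype and the median was 0.02. At least 2-fold apart were Tspan15, at 97.6 and 31.0 (1.27), and Tspan18, at 21.1 and 77.9 (-1.34). The 6 measured genes for partners of the CD81 protein lay within 2-fold, 3 in each direction, and Ifitm3, an antiviral membrane protein gene, read 2381 and 2582 (-0.12).

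Ascl2 encodes a basic helix-loop-helix factor that trophoblast cells need for the spongiotrophoblast layer of the placenta. The array readings were 114 for MatDup.dist7 and 151 for PatDup.dist7, and the log2 difference was -0.36. A gene at least that far apart was common, at 53.1% of all genes. The 3 measured relatives, Ascl3, Ascl4 and Ascl5, lay within 2-fold, and Ascl4 read 178 and 175 (0.02). Of 12 trophoblast markers, 9 had a value, and 7 of the 9 were higher in MatDup.dist7, but only 4 of the 9 passed the signal filter. Tpbpa, the marker of the spongiotrophoblast, was beyond 2-fold the other way at 5.89 and 28.2 (-1.01), both low signals. The list summed to 695 and 567, and no marker was under 1; the part of such cells in the Ascl2 value was not tested.

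Set out in the order of the chromosome, the signs of the differences fell into runs. From Th onward, Ascl2, Tspan32 and Cd81 were higher in PatDup.dist7, the sign of Tssc4 depended on the scaling, Kcnq1, Slc22a18 and Phlda2 around Cdkn1c were higher in MatDup.dist7, and Nap1l4 and Osbpl5 were higher in PatDup.dist7. Apart from Tssc4, each member kept its sign under every alternative that gave it a value. The 3 members with known imprinting in the embryo had a median of 0.41, and the 7 known mainly from the placenta had a median of -0.27 and, because of Th, a mean of 0.08. The grouping uses earlier knowledge of the genes and was made with the values known, and no test stands behind the contrast.

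The 9 other genes listed for the interval, from Ins2 to Dhcr7, were all within 2-fold, of which 5 were higher in PatDup.dist7, with a median of -0.29. The widest apart were Mrgpre, at 25.9 and 53.9 (-0.74) and under the signal filter, and Dhcr7, at 80.5 and 141 (-0.70). Both differences were larger than that of any member except Th. Tnfrsf23, a decoy receptor gene between Nap1l4 and Osbpl5, read 609 and 747 (-0.29). Cars, a transfer RNA synthetase gene next to Nap1l4, read 321 and 459 (-0.50), beside -0.44 for Nap1l4 and -0.53 for Osbpl5. Tnfrsf26, also between these members, went the other way at 18.3 and 5.56 (0.67), as did Mrgprg beyond Osbpl5 at 30.6 and 17.0 (0.50), both under the signal filter. Trpm5, a taste receptor channel gene between Tssc4 and Kcnq1, read 31.1 and 23.7 (0.25). Cars, Tnfrsf26, Mrgprg and Trpm5 were singled out for their places beside members after their values were seen, and Mrgpre and Dhcr7 for the size of their differences. With a pseudocount of 64, Gata3, Kcne1, Slc22a5, Nap1l2, Mrc1, Tspan15, Tspan18 and Tpbpa, named above as beyond 2-fold, all lay within it. With low signals raised to the 25th percentile, Kcne1 (0.08), Nap1l2 (-0.78) and Tpbpa (-0.36) lay within 2-fold as well, and the others named stayed beyond it. Gata3, Slc22a5, Mrc1 and Tspan18 passed the signal filter through PatDup.dist7 alone, and Tspan15 through MatDup.dist7 alone.

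**Figure D3:**
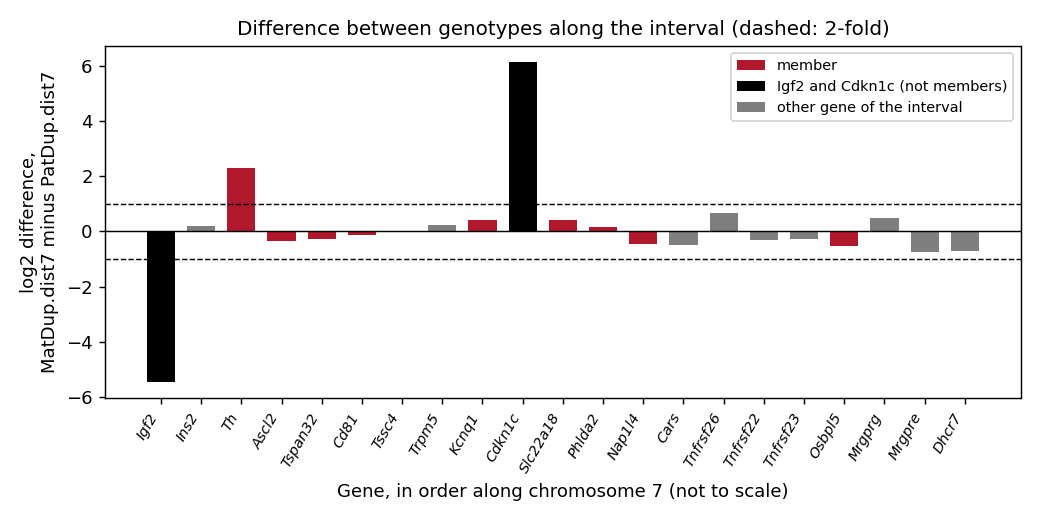
Log2 difference, MatDup.dist7 minus PatDup.dist7, of 21 genes in their order along chromosome 7, evenly spaced and not to scale; non-coding genes and a few others of the interval are left out. Red bars are the 10 members, black bars Igf2 and Cdkn1c and grey bars the other genes listed, each from 1 array per genotype; dashed lines mark 2-fold, which Igf2 (-5.45), Th (2.29) and Cdkn1c (6.13) pass.

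Across settings the members other than Th moved little. Their values stayed under 1.5-fold in each of the 8 alternatives, and the median of the members ran from -0.08 to 0.02. The signal filter and the choices of probe set could not change the value of a single member, since each rests on 1 probe set. The number of members at least 2-fold apart stayed at 1 throughout, while the share of all genes that far apart ran from 0.868% with a pseudocount of 64 to 19.5% with a pseudocount of 1.

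**Figure D4:**
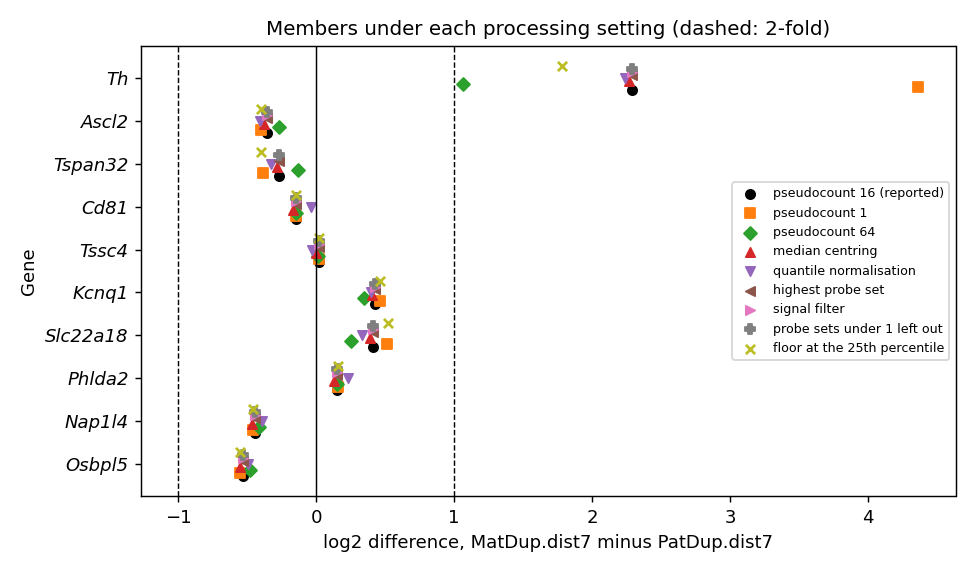
Log2 difference of each member (rows) under the reported setting, black circles, and 8 alternatives, other symbols, from 1 array per genotype. Dashed lines mark 2-fold; Th spreads from 1.06 to 4.37 and the other members stay between the lines.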

How the data were processed

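Transcripts of MEFs of 2 genotypes were measured on 1 array each. The authors deposited 1 linear intensity per probe set and array, made with Affymetrix Expression Console per the submitters' processing notes; how the background was corrected and the arrays were scaled, and the build, is not stated there. A summary method that leaves values near 0 stretches log ratios of weak genes, so log2(intensity + 16) was computed from the deposited intensities. Of 35557 probe sets, 21789 had 1 gene symbol, and 21698 of these were given current symbols through gene IDs of RefSeq GRCm38.p6. Probe sets of a gene were averaged on the log2 scale, giving 19938 genes, 12733 of them above the signal filter.

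The members and lists were chosen with earlier results of these data known. Named were every member and, from each list, up to 4 genes at least 2-fold apart above the filter, or else the gene with the highest signal, which served to pick a name and not to compare genes. The rule covered the gene lists, not the cell type markers; markers and other names were chosen after their values were seen. No test was made, since 1 array per genotype allows none, and this number limits precision. Calculations used Python 3.11.15 with pandas 2.3.3, numpy 2.4.6 and matplotlib 3.10.9, and were tested on simulated data. In the simulation only genes of high signal were changed, so recovery of changes at signals as low as those of Th was not tested. Alternatives covered pseudocount, floor, scaling, filters, choice of probe set and fold rule.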

Additional observations from a re-analysis of the deposited data

How the results depend on the processing

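A value was taken to have moved when it shifted by more than 0.43, the standard deviation between probe sets of a gene. Of 79 member values under alternatives, 3 moved, all of Th, which was 4.37 with a pseudocount of 1, 1.06 with one of 64 and 1.78 when low signals were raised to the 25th percentile. Many of the 79 could not move. Each member has 1 probe set and none was under 1. The signal filter, the highest probe set and leaving out probe sets under 1 therefore returned the reported value wherever they gave one. Median centring shifted every member by 0.02, so it could not pass 0.43 either. The count of members at least 2-fold apart was 1 under each alternative, 1.5-fold and 3-fold rules included, and the median of the members ran from -0.08 to 0.02. The signal filter left out Tspan32. Scaling moved the median of all genes by 0.02. No paired analysis was possible because each genotype was measured on 1 array, and variation between cultures is unknown. Th and Slc22a18 in PatDup.dist7, and Tspan32 on both arrays, lay below the filter intensity of 66.4.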
